A study of Mus musculus with 6 samples.

Results

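Pan-myeloid markers are genes that microglia, macrophages, monocytes and, for several of them, other white blood cells express at high levels. The set described here holds 10 genes (Aif1, Ptprc, Cd68, Itgam, Itgb2, Laptm5, Coro1a, Cd53, Ly86 and Cyba) of the 23366 gene symbols in a table of cortical RNA sequencing (RNA-seq). The members were named as markers of the lineage, and all 10 passed the filter on low values. RNA came from frontal cortical tissue of 3 microglia-depleted mice at d10 post depletion, named A4, A5 and A6 here, and of 3 littermate control mice, A1, A2 and A3, all on the C57BL/6 background, with 1 library per mouse. The depleted mice were CX3CR1-CreERT2+/- iDTR+/-, so that tamoxifen turned on the diphtheria toxin receptor in cells using the Cx3cr1 promoter and diphtheria toxin was then given to kill those cells. The littermate controls were CX3CR1-CreERT2+/- and lacked iDTR, so both groups carried CX3CR1-CreERT2 on 1 allele. Tamoxifen was given to both groups. Ages are not given in the sources used here, and neither is whether the controls received the toxin, so the toxin's own effect and that of losing microglia cannot be told apart. The paper reports that microglia repopulate after the depletion, with more staining for the microglial protein Iba1 in gray matter at d10. The comparison asks how much RNA of the shared myeloid genes is present at d10.

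Microglia are the macrophages of the brain tissue itself. They share with blood monocytes and macrophages the transcription factor PU.1 and a core of genes for adhesion, phagocytosis, the cytoskeleton and lysosomes, and they differ from them by a homeostatic program of their own. Shared genes of this kind do not tell which myeloid cell made the RNA. For Coro1a, which neurons also express, the RNA need not be myeloid.

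The spacing of low FPKM values (fragments per kilobase of transcript, scaled to sequencing depth, the unit of the table) placed 11.2 to 20.42 M fragments behind 5 of the libraries and 3.55 M behind A5. These depths are estimates from the deposited values. The methods state the same read coverage for every sample, well above the estimate for A5. By these estimates a value in A5 rests on few fragments, between 8 for Itgb2 and 337 for Coro1a. A4 stood apart too. Its summed Y-linked level was 5.56 FPKM together with 30.9 FPKM of Xist, whereas the Y-linked sum was at most 0.16 FPKM in the others, and Xist was 4.74 FPKM in A3 and 38.1 to 46.7 FPKM in the other 4 libraries. The methods describe the mice as sex-matched, and the Y-linked RNA of A4 goes against that description. A3 had low Xist and 0 FPKM of Y-linked RNA, so these genes do not settle its sex. A4 holds Y-linked RNA and Xist together, and whether that library holds RNA of more than 1 mouse, or was exchanged with another, was not tested. Log2 fold changes of the members are given below with and without A4 and A5, and the medians of some other gene lists without A4. Other comparisons use all 6 libraries unless stated, and may depend on A4 or A5 too. Leaving out A3 left Aif1 and the median over the members within 0.1 of their values on the log2 scale.

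No member was lower in all depleted mice than in all controls, and 8 of the 10 had a higher mean at d10. The median log2 fold change over the members was 0.29 (0.097 without A4 and 0.42 without A5), against -0.0085 over all 14385 genes tested, of which 48.0% were higher on average. Differences were tested with limma on log2(FPKM + 1), a scale that understates the change of genes with low FPKM. With Benjamini-Hochberg adjustment over all genes, 0 of the 10 members passed the threshold of 0.1, beside 0.0278% of all genes. At an unadjusted p under 0.05 in limma, 2 members were higher (Aif1 and Laptm5) beside 4.79% of all genes, and 0 were lower beside 5.74%. The depleted and control values did not overlap for 1 member, Aif1, which was higher. Over all genes 8.21% were separated in that direction and 9.38% in the other. In bulk tissue, a change in the number of cells of a type and a change in RNA per cell cannot be told apart.

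The depleted mice also differed among themselves. In A4, 8 of the 10 members were above every control, beside 36.0% of all genes. In A6, 6 members were above every control, beside 32.9% of all genes. In A5 only Aif1 was, beside 29.4% of all genes, while Itgam, Itgb2 and Cyba were below every control, beside 32.7% of all genes. The median deviation of the members from the control mean on the log2 scale was 0.61 in A4, -0.043 in A5 and 0.19 for A6, so the 3 depleted mice spread over a range wider than the median difference itself. Values of single mice are given below in the order A1, A2, A3 for controls and A4, A5, A6 for depleted mice.

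**Figure D1:**
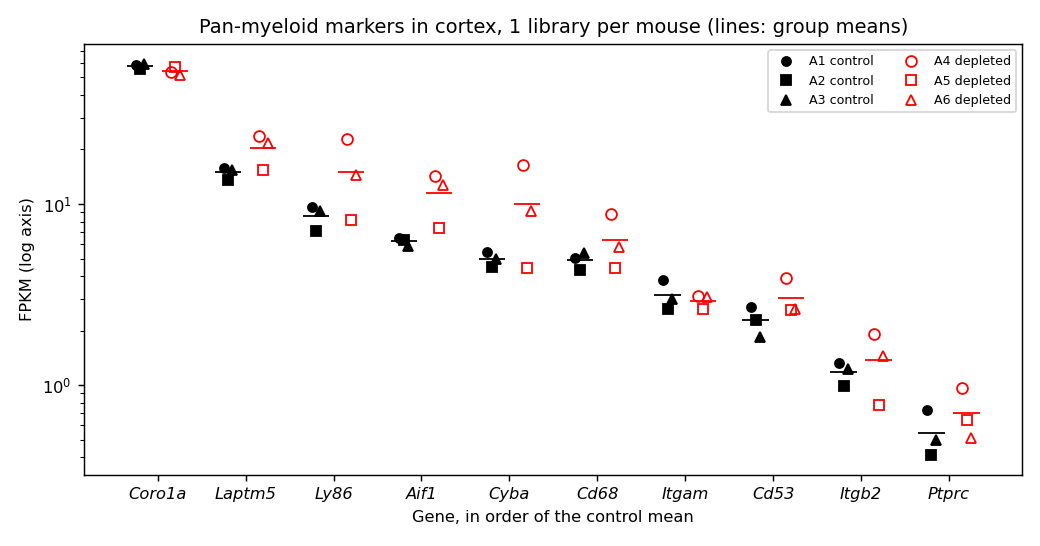
FPKM of the 10 markers on a log axis, with 1 point per mouse (black, control; red, depleted) and lines for group means, ordered by control mean. The levels run from 58.0 FPKM for Coro1a to 0.547 FPKM for Ptprc in controls, and Aif1 is the 1 gene whose 3 depleted points all lie above its 3 control points.

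Aif1 encodes Iba1, the calcium- and actin-binding protein that is the usual stain for microglia. The gene lies at chr17:35170991-35176068 on the minus strand (GENCODE M21, GRCm38). Its level was 6.49, 6.30 and 5.88 FPKM in the controls and 14.32, 7.34 and 12.75 FPKM in depleted mice. All depleted values were above all control values, with A5 the closest. The means were 6.22 ± 0.312 and 11.5 ± 3.66 FPKM (SD, n = 3 each), a ratio of 1.84, and the exact two-sided permutation test gave p = 0.1, the smallest that 3 against 3 allows. In limma the log2 fold change was 0.74 (SE 0.21, 95% interval 0.27 to 1.22) with an adjusted p of 0.378. The adjusted p ran from 0.0411 to 0.892 over the alternatives. Without A5 the log2 fold change was 1.01 and the adjusted p 0.0411 in limma, where 0.201% of all genes passed, and with each library weighted by its depth it was 0.92 with an adjusted p of 0.0860, where 0.236% passed. Without A4 it was 0.57, with an adjusted p of 0.307 in limma. The 22 fragments behind the A5 value allow 4.59 to 11.1 FPKM (95% exact Poisson interval, counting error only), a span that includes the 3 controls.

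Coro1a, at chr7:126699773-126707787 on the minus strand, encodes coronin 1A, an actin regulator of leukocytes that neurons also express. It was the most abundant member at 58.75, 55.75 and 59.62 FPKM in controls and 53.49, 57.15 and 51.39 FPKM in depleted mice. Here A4 and A6 were below every control and A5 was among them. The log2 fold change was -0.10 (SE 0.073, 95% interval -0.27 to 0.064) with an adjusted p of 0.640 in limma. It was -0.097 without A4 and -0.14 without A5, and the interval was the narrowest of the 10. Its exons overlap those of Bola2, on the opposite strand, over 26 bases, or 0.934% of its exon bases, and Bola2 was between 46.8 and 67.3 FPKM. Coro1a made up 53.5 to 57.0% of the summed FPKM of the 10 members in controls, 35.8% in A4, 41.8% in A6 and 55.2% in A5. The sum of the other 9 was 51.0, 42.1 and 47.3 FPKM in controls and 95.9, 46.4 and 71.5 FPKM in depleted mice, so that A5 lay inside the control range and A4 and A6 above it.

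Among the surface receptors, Ptprc, at chr1:138062861-138175708 on the minus strand, encodes CD45, the receptor tyrosine phosphatase of nucleated blood cells. It was the least abundant member, at 0.73, 0.41 and 0.50 FPKM in controls and 0.96, 0.64 and 0.51 FPKM in depleted mice. These ranges overlap, the ratio of means was 1.29, and the log2 fold change was 0.14 (SE 0.18, 95% interval -0.27 to 0.54; adjusted p 0.812 in limma). It was 0.030 without A4 and 0.16 without A5.

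Itgam and Itgb2 encode CD11b and CD18, the alpha and beta chains of complement receptor 3. Itgam lies at chr7:128062640-128118491 and Itgb2 at chr10:77530252-77565708, both on the plus strand. Itgam was at 3.80, 2.64 and 2.98 FPKM in controls and 3.09, 2.62 and 3.07 FPKM in depleted mice, with all but A5 among the control values and A5 0.02 FPKM below them. The log2 fold change of Itgam was -0.069 (SE 0.14, 95% interval -0.40 to 0.26; adjusted p 0.893 in limma), and it was -0.099 without A4, -0.011 without A5 and 0.043 without A1, the control with the highest value. Of the annotated exon bases of Itgam, 68.7% also belong to Gm49368, a model that reads through the gene. Gm49368 is not in the deposited table under that symbol, and how reads over the shared bases were assigned was not tested. Itgb2 was at 1.32, 0.99 and 1.23 FPKM in controls and 1.91, 0.78 and 1.45 FPKM in depleted mice, on both sides of the control range. Its log2 fold change was 0.10 (SE 0.20, 95% interval -0.36 to 0.56; adjusted p 0.887 in limma), 0.30 without A5 and -0.059 without A4.

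Cd53, at chr3:106759921-106790149 on the minus strand, encodes a tetraspanin of leukocytes. Its level was 2.70, 2.28 and 1.84 FPKM in controls and 3.88, 2.59 and 2.62 FPKM in depleted mice. Only A4 lay above the controls, and the log2 fold change was 0.29 (SE 0.17, 95% interval -0.099 to 0.69; adjusted p 0.577 in limma). Without A4 it was 0.15 and without A5 0.37.

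The lysosomal members were Cd68 and Laptm5. Cd68, at chr11:69664213-69666153 on the minus strand, encodes macrosialin, a glycoprotein of macrophage lysosomes that is widely stained in phagocytic microglia. It was at 5.03, 4.30 and 5.37 FPKM in controls and 8.86, 4.43 and 5.80 FPKM in depleted mice. A4 and A6 were above every control and A5 was within them. The ratio of means was 1.30, with a log2 fold change of 0.28 (SE 0.21, 95% interval -0.19 to 0.75; adjusted p 0.656 in limma). The difference rested on A4, since it was 0.047 without that mouse and 0.48 without A5.

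Laptm5, at chr4:130913125-130936141 on the plus strand, encodes a lysosomal membrane protein of blood cells. It was at 15.87, 13.63 and 15.35 FPKM in controls and 23.76, 15.48 and 21.82 FPKM in depleted mice. Again A4 and A6 were above every control and A5 was inside their range, here with 143 fragments and a counting interval of 13.1 to 18.3 FPKM. The log2 fold change was 0.40 (SE 0.15, 95% interval 0.056 to 0.75) with an unadjusted p of 0.0277 and an adjusted p of 0.432 in limma, and it was 0.28 without A4 and 0.58 without A5.

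Ly86 and Cyba had wide spreads among the depleted mice. Ly86, at chr13:37345208-37419036 on the plus strand, encodes MD-1, the secreted partner of the toll-like receptor relative CD180. Its level was 9.63, 7.08 and 9.12 FPKM in controls and 22.83, 8.12 and 14.38 FPKM in depleted mice. The depleted mean was 15.1 ± 7.38 FPKM against 8.61 ± 1.35 FPKM (SD, n = 3 each), a ratio of 1.75. The log2 fold change was 0.65 (SE 0.30, 95% interval -0.040 to 1.34; adjusted p 0.498 in limma). It was 1.00 without A5 and 0.31 without A4.

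Cyba, at chr8:122424776-122432930 on the minus strand, encodes p22phox, the small chain of the membrane core of the phagocyte NADPH oxidase. It was at 5.43, 4.49 and 4.99 FPKM in controls and 16.32, 4.41 and 9.10 FPKM in depleted mice, so the depleted mice fell on both sides of the control range. The ratio of means was 2.0, the highest of the 10, and the log2 fold change was 0.72 (SE 0.35, 95% interval -0.081 to 1.52; adjusted p 0.513 in limma). It was 1.15 without A5 and 0.31 without A4. The A5 value rests on 11 fragments, which allow 2.24 to 8.02 FPKM, a span below the interval of 13.8 to 19.1 FPKM in A4 that meets the interval of 7.05 to 11.4 FPKM in A6.

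**Figure D2:**
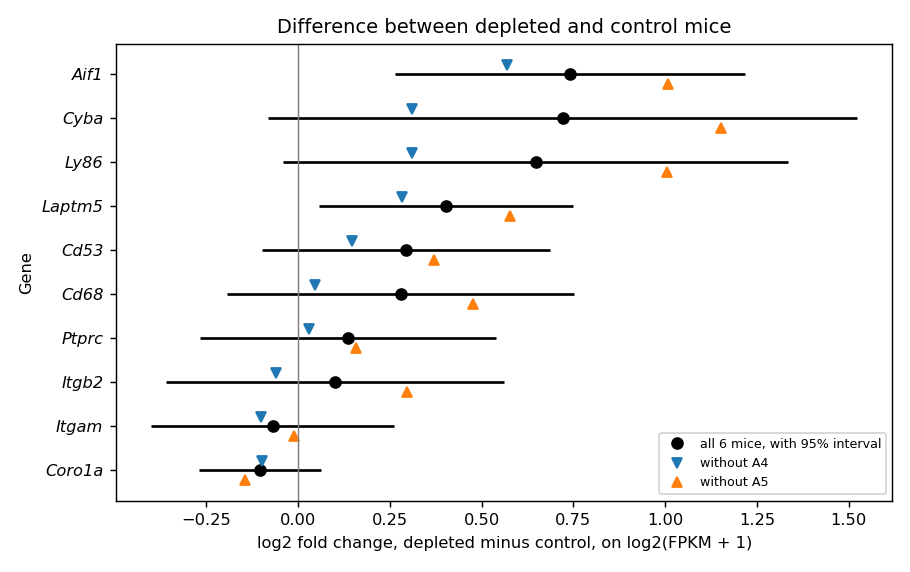
Log2 fold change of each marker on log2(FPKM + 1), depleted minus control, with its 95% interval (black, all 6 mice) and the value without A4 (blue) or without A5 (orange). The intervals of Aif1 (0.27 to 1.22) and Laptm5 (0.056 to 0.75) lie above 0 and the other 8 include it, and for the 8 members with a higher mean the value is lower without A4.

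Leaving out A5, the shallowest library, put 5 members (Aif1, Cd68, Laptm5, Ly86 and Cyba) at an unadjusted p under 0.05 in limma, all higher, beside 6.92% of all genes, and Aif1 alone past the adjusted threshold. The adjusted p was 0.144 for Laptm5, 0.164 for Cyba and 0.176 for Ly86 in that fit. With A5 left out the depleted group holds 2 libraries, and 7 members did not overlap between the groups, 6 of them higher and Coro1a lower, beside 32.7% of all genes. Without A1 4 members did not overlap, beside 23.6% of all genes, and without A2 2 did not, beside 25.9%. With libraries weighted by depth, 5 members were higher at an unadjusted p under 0.05 in limma, beside 7.75% of all genes. The part of depth in these differences was not tested.

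**Figure D3:**
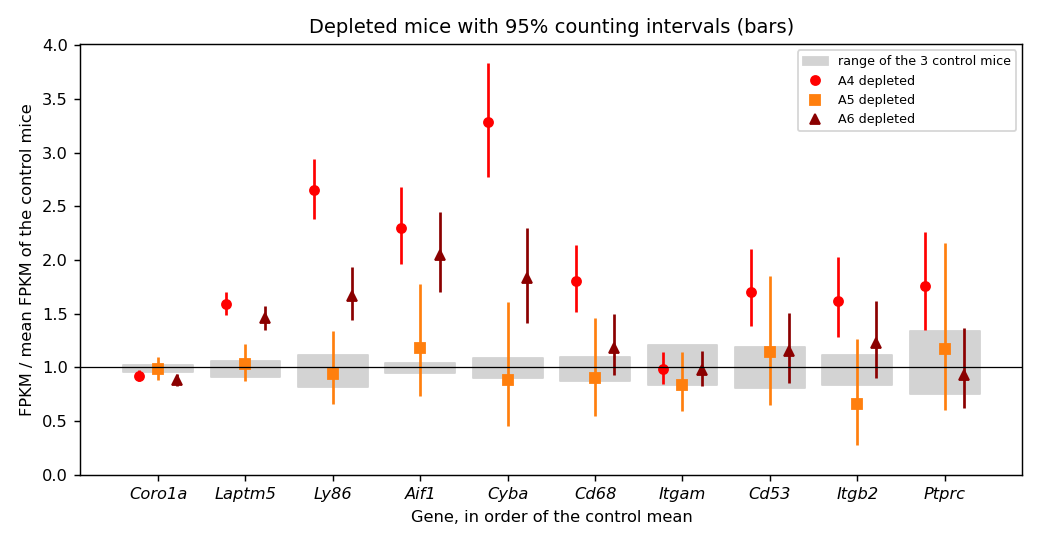
FPKM of each marker in A4, A5 and A6, divided by the mean of the 3 controls, with 95% counting intervals as bars and the range of the controls in grey. The bars of A5 are the widest, as for Cyba with 11 fragments, and the A4 bars of 8 markers, all but Itgam and Coro1a, lie above the highest control.

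In controls the order of the mean levels was Coro1a, Laptm5, Ly86, Aif1, Cyba, Cd68, Itgam, Cd53, Itgb2 and Ptprc. Of the neighbours in this order, Cyba and Cd68 overlapped in their control values, as did Itgam and Cd53, and the other neighbours were separate in the 3 controls. The log2 ratio of Aif1 to Itgam, a pair chosen after the values were seen, was 0.77, 1.25 and 0.98 in controls and 2.21, 1.49 and 2.05 in A4, A5 and A6. The groups did not overlap in this ratio, which in A5 rests on 22 and 39 fragments. The log2 ratio of Cyba to Itgam was 0.51, 0.77 and 0.74 in controls and 2.40, 0.75 and 1.57 in A4, A5 and A6, and that of A5 was inside the control range.

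Over the 6 libraries, Ly86, Cd68 and Cyba followed the mean of the other members most closely (Pearson r of 0.95, 0.93 and 0.92), Itgam did so weakly (0.38) and Coro1a ran the other way (-0.57). These values describe 6 libraries whose depth also differs, and A4 holds the highest mean of the set. Outside the set, the genes with the most similar pattern were Pmpcb, 4932416H05Rik, Agxt2l1, Plrg1, 2310039H08Rik, Psmb10, Psmf1, LOC100504703, Cotl1 and 2410004B18Rik, with r between 0.975 and 0.989 over the 6 libraries. These 10 had the highest r of all other genes tested, and with so few libraries a high r can arise without a link. The closest, Pmpcb, was at 31.13, 28.06 and 29.78 FPKM in controls and 38.72, 29.03 and 32.17 FPKM in depleted mice. Psmb10, a subunit of the immunoproteasome, was at 24.05, 19.05 and 22.85 FPKM in controls and 35.34, 22.20 and 25.23 FPKM in depleted mice. For both genes the groups overlapped, and a link to the members was not tested. None of the 10 passed the adjusted threshold in limma.

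The promoters of the members were read for the PU box, the purine-rich element to which PU.1 binds. Its letters GAGGAA were sought on either strand in the 250 bases before each RefSeq start. For Aif1, Coro1a, Laptm5, Ly86 and Ptprc these starts lie inside the GENCODE gene bounds given above, so part or all of the window does too. RefSeq (GRCm38.p6) gave 11 promoters for 9 members, and none was matched for Itgb2. The letters were present in 6 of the 11 (54.5%), those of Aif1, Cd53, Cd68, Itgam, Laptm5 and Ptprc, and in 23.3% of 32851 promoters of all genes. The windows of Aif1, Itgam and Cyba are shown because Aif1 had the largest log2 fold change of the members, Itgam one near 0 and Cyba the largest standard error. Capitals mark the PU box, where TTCCTC is the same element read on the opposite strand.
Aif1, chr17:35176053-35176302, minus strand: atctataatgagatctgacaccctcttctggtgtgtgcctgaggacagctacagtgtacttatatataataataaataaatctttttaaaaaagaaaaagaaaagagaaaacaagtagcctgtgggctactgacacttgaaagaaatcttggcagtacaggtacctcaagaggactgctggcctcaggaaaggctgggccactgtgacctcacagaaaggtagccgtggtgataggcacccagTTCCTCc
Itgam, chr7:128062390-128062639, plus strand: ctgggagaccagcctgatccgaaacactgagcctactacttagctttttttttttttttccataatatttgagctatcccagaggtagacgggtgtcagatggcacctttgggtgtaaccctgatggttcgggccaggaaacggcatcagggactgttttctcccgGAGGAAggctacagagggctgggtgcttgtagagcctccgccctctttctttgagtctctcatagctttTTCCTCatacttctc
Cyba, chr8:122432941-122433190, minus strand: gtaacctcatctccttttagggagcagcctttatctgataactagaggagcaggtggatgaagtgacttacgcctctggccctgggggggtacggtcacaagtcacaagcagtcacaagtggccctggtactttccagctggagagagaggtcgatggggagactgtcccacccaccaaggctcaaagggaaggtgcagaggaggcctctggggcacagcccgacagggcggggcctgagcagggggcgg
The Aif1 window holds the element once, 7 bases before the RefSeq start and inside the GENCODE bounds of the gene. The Itgam window holds it 84 and 15 bases before the RefSeq start. The Cyba window does not hold these letters. The element is therefore in the windows of the member with the largest log2 fold change and of one near 0 alike. TGTGGT, the RUNX element, was in 1 of the 11 promoters (Cd53) and 14.0% of all, and TATAAA was in 2 (Laptm5 and Ptprc) and 12.4% of all.

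Genes that work with the members were examined by function, and none of these genes passed the adjusted threshold in limma. Of the other parts of the phagocyte NADPH oxidase, which p22phox anchors, 4 of 6 were tested and all had higher means, with a median log2 fold change of 0.48 that was 0.20 without A4. Ncf1 and Rac2 were higher in every depleted mouse than in every control, with log2 fold changes of 0.48 each, and Rac1, which most cells express, had 0.014. Cybb, the catalytic chain, was too low to be tested and was at 0.16, 0.33 and 0.22 FPKM in controls and 0.61, 0.47 and 0.50 FPKM in depleted mice. Ncf4 was also too low.

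Of 6 partners of the integrin chains, 3 were tested. Itgax, which encodes CD11c and pairs with CD18, was at 0.08, 0.04 and 0.08 FPKM in controls and 1.46, 0.42 and 0.44 FPKM in depleted mice, without overlap, and was too low to be tested. Itgal and Itgad were too low as well. Among the cytoplasmic and ligand partners, the log2 fold change was 0.025 for Fermt3, 0.031 for Tln1 and 0.28 for Icam1.

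MD-1 is held at the surface by CD180, and Cd180 was at 0.52, 0.19 and 0.91 FPKM in controls and 1.95, 1.80 and 0.99 FPKM in depleted mice. Cd180 did not overlap between the groups, and unlike Ly86 it was high in A5. Its log2 fold change was 0.75 (SE 0.23; adjusted p 0.378 in limma). Ly96 and Cd14 had 0.54 and 0.29, and Tlr4 was too low to be tested. Of the kinases and phosphatases linked to CD45, Ptpn6 (SHP-1) was at 1.17, 1.11 and 1.08 FPKM in controls and 3.60, 1.52 and 2.58 FPKM in depleted mice. Lyn, a kinase of the Src family, was at 2.39, 1.79 and 1.88 FPKM in controls and 3.63, 3.13 and 3.10 FPKM in depleted mice. Both were separate between the groups, with log2 fold changes of 0.71 (SE 0.22) and 0.51 (SE 0.14) and adjusted p of 0.378 and 0.370 in limma. Csk had -0.020, and Fgr and Ptprcap were too low to be tested.

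Relatives of the members include genes that other brain cells use. Of the other 6 coronins, 4 had lower means, and Coro1b was at 34.64, 35.16 and 34.47 FPKM in controls and 27.11, 28.00 and 31.04 FPKM in depleted mice. Its log2 fold change was -0.27 (SE 0.079; adjusted p 0.378 in limma). The values were -0.15 for Coro6, -0.12 for Coro7, -0.098 for Coro2b, 0.0030 for Coro1c and 0.052 for Coro2a. Among relatives of Laptm5 in the lysosome, the log2 fold change was 0.042 for Laptm4a, 0.030 for Lamp1, 0.020 for Lamp2, -0.13 for Laptm4b and -0.41 for Lamp5, a protein of neurons. Tetraspanins other than Cd53 were split, with Cd63 at 0.32, Cd37 at 0.20, Cd9 at 0.16, Cd151 at -0.074, Cd81 at -0.097 and Cd82 at -0.21. Aif1l, the paralogue of Aif1, had 0.34 and was highest in A5, at 4.54 FPKM.

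Of 20 other genes largely restricted to leukocytes, 19 were tested, 17 had higher means, 5 were higher at an unadjusted p under 0.05 in limma (4.79% of all genes) and 0 passed after adjustment, with a median of 0.27. The range ran from Cd52, a glycoprotein of the leukocyte surface, to Csf1r, the receptor that microglia need to survive. Cd52 was at 3.90, 3.19 and 3.12 FPKM in controls and 27.21, 8.32 and 14.08 FPKM in depleted mice, and its log2 fold change was 1.85 (SE 0.34; adjusted p 0.283 in limma). Csf1r had a log2 fold change of -0.081. Sfpi1, the older symbol for the gene of PU.1 and added here after its values were seen, was at 1.12, 1.13 and 0.53 FPKM in controls and 2.05, 1.05 and 1.93 FPKM in depleted mice.

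Of 15 homeostatic microglia genes, 9 had higher and 6 lower means, and the median was 0.025, or -0.033 without A4. Fcrls was the lowest at -0.90 (adjusted p 0.370 in limma), with 11.88, 8.19 and 13.30 FPKM in controls and 3.83, 5.05 and 7.91 FPKM in depleted mice. Of the border macrophage genes 7 were tested, and their median was -0.19 (-0.099 without A4), from Pf4 at -0.85 to Lyve1 at 0.29.

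Markers of blood cells that share members of the set were low. The 6 monocyte genes summed to 4.01 to 4.28 FPKM in controls and 3.95 to 6.87 FPKM in depleted mice, where Ccr2 was at most 0.24 FPKM in any library. Of them 2 were tested, Ly6c2 with a log2 fold change of 0.62 and Vcan with -0.13. The 7 neutrophil genes found in the table summed to 4.18 to 6.29 FPKM in controls and 3.43 to 8.19 FPKM in depleted mice, and 3 were tested, with Cxcr2 at 0.29, S100a8 at -0.19 and S100a9 at -0.64. The 12 T and NK cell genes summed to 0.98 to 1.71 FPKM in controls and 0.68 to 3.05 FPKM in depleted mice, with the maximum in A4, Gzmb and Ncr1 listed at 0 in every library, and Lck, the 1 gene tested, at -0.24. The 5 B cell genes summed to at most 1.25 FPKM, with Ms4a1 listed at 0 in every library. Red cell genes summed to 90.7 to 189 FPKM in controls, 25.9 FPKM in A4 and 155 to 166 FPKM in A5 and A6, so A4, with the highest summed level of the members, had the least red cell RNA. The globin paralogues share much sequence, so the split between them is uncertain. The part of blood cells in the marker levels was not tested.

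The 14 type I interferon response genes all had higher means, from Stat2 at 0.75 to Ifit3 at 2.30. All 14 were higher in every depleted mouse than in every control, beside 8.21% of all genes. Of the 14, 12 had an unadjusted p under 0.05 in limma (4.79% of all genes) and 0 passed after adjustment, where 4 of 14385 genes did. The paper's test on raw counts called more genes at that threshold, with genes of type I interferon signaling among those upregulated. The median deviation of the 14 genes from the control mean reached 3.14 in A4, against 0.94 and 0.96 in A5 and A6, so A4 was the extreme mouse here as in the markers. Of the cortical cell types, the median log2 fold change was -0.039 for neuron genes (from Nefl at -0.28 to Gad1 at 0.056), -0.14 for astrocyte genes (from Aldh1l1 at -0.21 to Gfap at 1.00), -0.30 for oligodendrocyte genes (from Opalin at -0.48 to Mobp at -0.20) and 0.10 for endothelial genes (from Cdh5 at -0.088 to Pecam1 at 0.34). Without A4 these medians were 0.027 for neuron, -0.075 for astrocyte, -0.25 for oligodendrocyte and 0.22 for endothelial genes. Choroid plexus genes, which mark tissue next to the cortex, had a median of -0.58, with Ttr at -1.91, Folr1 at -0.98, Aqp1 at -0.58, Clic6 at -0.43 and Kl at -0.23. Their sum was 167 to 323 FPKM in controls and 45.0 to 69.6 FPKM in depleted mice. Its part in the marker levels was not tested.

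**Figure D4:**
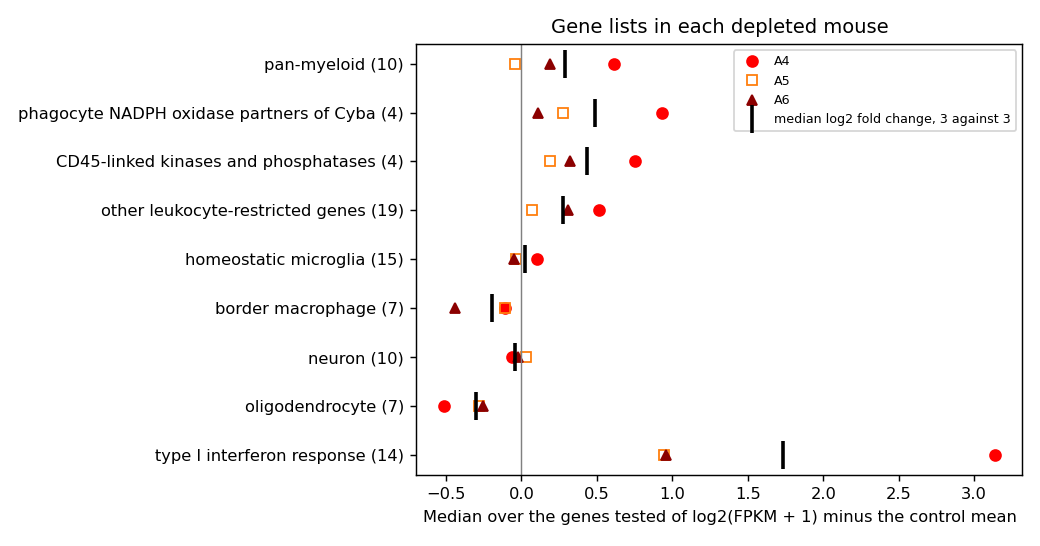
Median over each gene list (number of genes tested in parentheses) of log2(FPKM + 1) minus the control mean, in A4, A5 and A6, with a black bar for the median log2 fold change of 3 mice against 3. The pan-myeloid markers have 0.61, -0.043 and 0.19 in A4, A5 and A6, and the interferon list lies farthest right in A4 at 3.14.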

How the data were processed

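RNA of frontal cortical tissue was measured in 6 mice, grouped by their labels. The authors prepared poly(A) libraries, sequenced them as read pairs of 75 bp, ran TopHat for alignment and RSEM on known transcripts for quantification, and the table they deposited holds TMM-scaled FPKM values rounded to 2 decimals. The submitters' processing notes name mm9, while positions and promoters here come from GRCm38. The study's test on raw counts, which called more genes at an adjusted p under 0.1 than limma did here, was not repeated.

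FPKM values were taken to log2(FPKM + 1). Of 23366 genes, 14385 reached a mean of 0.5 FPKM and were tested with limma 3.58.1 in R 4.3.3 (eBayes with trend, Benjamini-Hochberg adjustment, threshold 0.1), and single members also by an exact permutation test. Depth (3.55 to 20.42 M fragments) was estimated from 1813 genes with 1 transcript, where 78.0 to 84.9% of the low values used lay within 0.2 of a whole number of fragments. Counting intervals are exact Poisson intervals at 95% and use the median length of the coding transcripts. 3 genes of the lists were matched through an older symbol in RefSeq (Sfpi1, Chi3l3 and Beta-s). Both the depth estimate and the limma fit were tested on simulated data.

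The members and lists were chosen with earlier results of these data known. The genes named are all members, every gene of a list with at most 6 genes tested and otherwise its highest and lowest by log2 fold change, and the 10 genes most like the members. Some of the genes this rule names are not reported here. Alternatives changed the pseudocount (0.1), the filter (none, or a mean of 1 FPKM), the scaling (TPM, median-of-ratios, quantile), eBayes (without trend, robust), the weights (array weights) or the threshold (0.05), or omitted 1 mouse at a time. Added after seeing the data were depth weights and leaving Coro1a out of the median.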

Additional observations from a re-analysis of the deposited data

How the results depend on the processing

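With all 6 libraries, 0 of the 10 members passed the adjusted threshold, 2 had an unadjusted p under 0.05 in limma and 1 did not overlap between the groups. Leaving out each mouse in turn gave 0 to 1, 1 to 5 and 1 to 7 members, with the highest of each without A5, where 0.201% of all genes passed, 6.92% were higher at an unadjusted p under 0.05 and 32.7% did not overlap. The middle count was 1 without A2, A3, A4 or A6, and the last was 4 without A1 (23.6% of all genes) and 2 without A2 (25.9%). Weighting libraries by depth gave 1 member past the adjusted threshold (Aif1, beside 0.236% of all genes) and 5 at an unadjusted p under 0.05 (beside 7.75%, higher). The median log2 fold change ran from 0.097 without A4 to 0.42 without A5, around 0.29. Of 159 alternative values of single members, 3 changed sign, none of them called: Itgam (-0.069) ran from -0.16 without A2 to 0.043 without A1, and Itgb2 (0.10) from -0.059 without A4 to 0.30 without A5 and had -0.024 with array weights. Aif1 passed in 2 of 16 alternatives. Ptprc gave no value at a minimum mean of 1 FPKM. No paired analysis was possible because the groups share no replicate numbers. The sources used here give no litter or batch, and the estimated 3.55 M fragments of A5 limit every value that rests on it.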
